A study of Mus musculus with 6 samples.

Results

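The myeloid C-type lectin receptors described here were 9 genes chosen by symbol, namely *Clec4a1*, *Clec4a2*, *Clec4a3*, *Clec4d*, *Clec4e*, *Clec4n*, *Clec5a*, *Clec7a* and *Clec12a*. All 9 were found among the 15415 genes of the deposited table, and all 9 were among the 9030 genes tested. RNA was sequenced from peritoneal macrophages (PEMs) in 6 libraries, of which 3 had the genotype LysM-Cre; *Tim-4* fl/fl (knockout libraries 1 to 3) and 3 the genotype *Tim-4* fl/fl without Cre (control libraries 1 to 3). The floxed allele was made in C57BL/6J mice, and the study used males of 6 to 8 weeks and collected PEMs 3 days after an intraperitoneal injection of starch. Cre was driven by the lysozyme gene *Lyz2*, which is active in macrophages and in other myeloid cells such as neutrophils. Since the controls carry no Cre, the Cre allele and the loss of Tim-4 cannot be told apart. The treatment entry of all 6 labels reads LPS, the bacterial lipopolysaccharide that activates macrophages, while the methods describe 1 ug/ml for 3.5 hours without naming the sequenced cells. The genotype entry of the labels is swapped relative to the sample titles, and the titles were used. No label or method says whether the libraries of a group came from separate mice, so the p-values measure the spread between libraries, which may be technical. The study's figure captions give 3 or more biological replicates for the error bars of each group, without naming the sequenced libraries.

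C-type lectin receptors are surface proteins with which myeloid cells bind sugars, lipids and other ligands of microbes and dying cells. Mincle (*Clec4e*), MCL (*Clec4d*) and Dectin-2 (*Clec4n*) signal through the Fc receptor gamma chain *Fcer1g*, *Clec5a* through the adaptor *Tyrobp*, and Dectin-1 (*Clec7a*) through a tyrosine motif of its own, and these routes lead to the kinase *Syk* and, for most of them, to the adaptor *Card9* and NF-κB. *Clec4a2* and *Clec12a* instead carry an inhibitory tyrosine motif that recruits phosphatases, while *Clec4a1* and *Clec4a3* are close relatives of *Clec4a2* from the same gene cluster. Mincle is known to be scarce in resting macrophages and to be induced by inflammatory stimuli.

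Promoter windows of 250 bases before and 50 bases after a gene start were found for 8 of the 9 genes, in 10 windows, in the RefSeq table of build GRCm38.p6. The 250 bases before the start are shown for 3 genes: for *Clec4d* and *Clec4e*, the abundant neighbours whose levels were lower in all knockout libraries, and for *Clec12a*, whose level was higher in all of them. They lie at chr6:123261857-123262106 (plus strand, *Clec4d*), chr6:123289872-123290121 (minus strand, *Clec4e*) and chr6:129349994-129350243 (plus strand, *Clec12a*). Capitals mark GAGGAA or its reverse complement TTCCTC, the core of the motif bound by the myeloid factor PU.1.
Clec4d: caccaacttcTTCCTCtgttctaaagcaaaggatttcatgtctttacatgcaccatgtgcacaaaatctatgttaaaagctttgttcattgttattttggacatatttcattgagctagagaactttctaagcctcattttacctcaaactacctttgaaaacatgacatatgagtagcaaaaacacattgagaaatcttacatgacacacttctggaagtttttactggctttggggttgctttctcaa
Clec4e: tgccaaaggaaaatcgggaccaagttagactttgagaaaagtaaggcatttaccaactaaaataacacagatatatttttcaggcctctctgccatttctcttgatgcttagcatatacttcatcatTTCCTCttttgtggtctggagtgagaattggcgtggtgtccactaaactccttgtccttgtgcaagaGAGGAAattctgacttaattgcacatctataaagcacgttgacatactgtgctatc
Clec12a: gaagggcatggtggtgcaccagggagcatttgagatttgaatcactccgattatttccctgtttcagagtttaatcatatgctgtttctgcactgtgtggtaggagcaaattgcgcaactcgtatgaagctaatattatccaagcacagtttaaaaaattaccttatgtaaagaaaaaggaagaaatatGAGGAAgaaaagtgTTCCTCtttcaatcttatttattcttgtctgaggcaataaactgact
The letters GAGGAA, read on both strands of the whole 300-base window, occurred in 7 of the 8 genes and in 8 of the 10 windows, and in 28.3% of all 32851 promoter windows of the table. They were absent from the window of *Clec4a2* and from 1 of the 2 windows of *Clec4a3*. The 2 windows of *Clec7a* overlap almost fully and share 1 GAGGAA, which is counted in both. A C/EBP motif, TTGCNNAA on either strand, occurred in *Clec4e* and *Clec12a* and in 10.8% of all windows, with its first base 66 and 140 bases before the start, respectively. The AP-1 motif TGANTCA occurred in *Clec4a2* and *Clec12a* and in 7.81% of all windows. The TATA box TATAAA, searched on both strands, began 29 bases before the start of *Clec4e*, occurred elsewhere in windows of *Clec4a2*, *Clec5a* and *Clec7a*, and was found in 13.6% of all windows. A loose NF-κB motif was present in *Clec4a1* alone among the 8 genes and in 50.8% of all windows. No match of one motif overlapped a match of another. These matches describe the letters of the windows, and no binding was measured.

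Expression is given as FPKM, that is, fragments per unit of gene length and per fragment counted in the library, so that levels can be compared between genes. Differences are log2 fold changes, knockout minus control, of log2(FPKM + 1) fitted with limma over all 9030 tested genes, with Benjamini-Hochberg adjustment and a threshold of 0.05. Between 36170767 and 42217558 reads per library fell on listed genes. In a principal component analysis of all tested genes, the groups parted on the first axis (56.0% of the variance), and control libraries 1 and 3 lay at opposite ends of the second (28.9%). *Timd4*, the gene of Tim-4, was between 0.246 and 0.394 FPKM in the knockout libraries and between 1.19 and 19.5 FPKM in the controls, with the lowest control value in control library 3. *Lyz2* was at 41.4 and 106 FPKM in knockout libraries 1 and 3 but at 4656 FPKM in knockout library 2, against 7090 to 8482 FPKM in the controls. The macrophage marker *Adgre1* was abundant in all 6 libraries, from 234.7 to 363.8 FPKM. Of 8 macrophage markers, all tested, 3 had a positive and 5 a negative fold change, and 1 passed the threshold (*Fcgr1*, higher). Their sum was 2682 to 7277 FPKM in the knockout libraries and 9365 to 11148 FPKM in the controls, most of it *Lyz2* in the controls. Since *Lyz2* is the gene that drives Cre, this sum does not compare macrophage content between the groups. The groups did not overlap for 2 higher markers (*Cd68* and *Fcgr1*) and 3 lower ones (*Csf1r*, *Cd14* and *Lyz2*). In bulk RNA, fewer cells of a type and less RNA per cell cannot be told apart.

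Of the 9 receptors, *Clec12a* rose in the knockout libraries, and 0 fell past the threshold in limma, where 4 lower receptors had an unadjusted p under 0.05, and 0 in voom, a fit of limma to the recovered reads. The share of all tested genes past the threshold was 7.31%, with 2.57% higher and 4.74% lower. The fold change was negative for 8 of the 9 receptors, while 63.5% of all tested genes had a negative fold change. The median log2 fold change of the receptors was -0.49, against -0.11 over all tested genes. After the libraries were rescaled by the median of ratios, the medians were -0.35 and 0.01 and the same 8 receptors stayed below 0. This rescaling also turned the 232 higher and 428 lower genes of the whole table into 343 higher and 326 lower. The knockout and control libraries did not overlap for 4 of the 9 receptors, 3 of them lower (*Clec4d*, *Clec4e* and *Clec4n*) and 1 higher (*Clec12a*), where 34.1% of all tested genes did not overlap. With the replicate number as a block, *Clec4n* passed as well, so that 2 of 9 receptors were called, against 9.47% of all tested genes. No receptor was past the threshold without control library 2 or without either of knockout libraries 1 and 2 (4 of 9 had an unadjusted p under 0.05 in limma in each of these fits), and 2 passed without control library 3, which were *Clec12a* and *Clec7a*. Of the whole table, 8 genes were past the threshold with control library 2 left out, 30 with knockout library 1 left out and 63 with knockout library 2 left out, whereas 1278 genes (14.2%) passed with control library 3 left out.

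**Figure D1:**
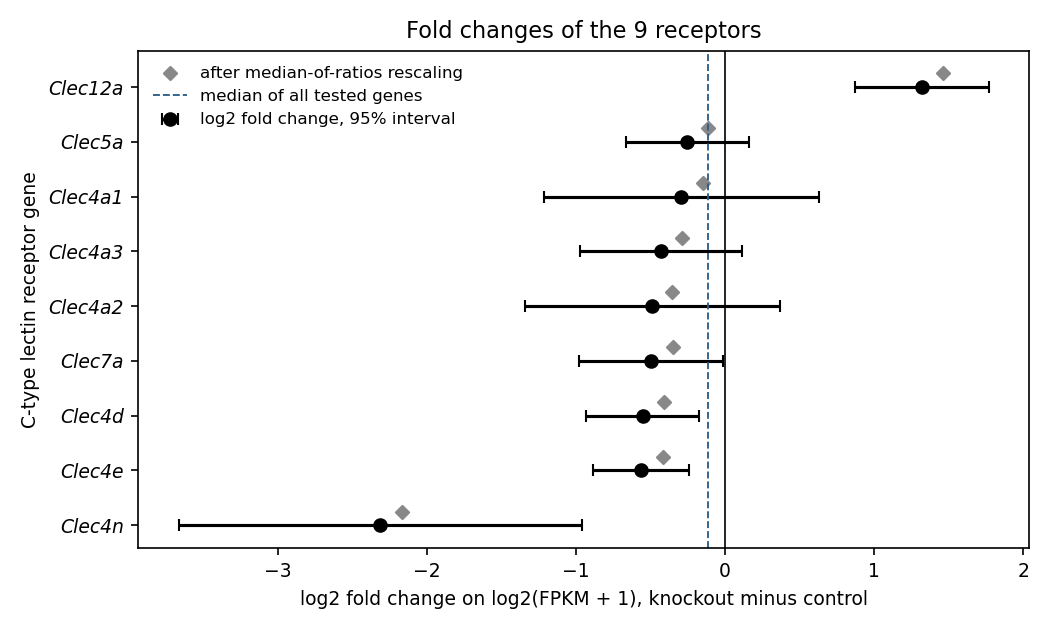
Log2 fold changes of the 9 receptors, knockout minus control, on the log2(FPKM + 1) scale (black points, bars are 95% confidence intervals from limma, 3 libraries per group) and the same values after rescaling by the median of ratios (grey diamonds). The dashed line is the median of all tested genes at -0.11; *Clec12a* lies at 1.32 and *Clec4n* at -2.31, and the other 7 lie between -0.56 and -0.25.

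The receptors spanned a wide range of levels. *Clec4e* was the most abundant, with a mean of 2290 FPKM over the 6 libraries, place 20 of the 9030 tested genes. *Clec4d* followed at 1110 FPKM and place 44, then *Clec4n* at 176.8 FPKM and place 391. The lowest was *Clec4a2* at 12.9 FPKM and place 3338. *Clec4d* and *Clec4e* together held between 85.1% and 91.5% of the summed FPKM of the 9 receptors. That sum was 3066, 2615 and 3499 FPKM (knockout libraries 1 to 3) and 4287, 4582 and 4987 FPKM (control libraries 1 to 3), so the groups were apart. As a share of the reads on listed genes, the 9 receptors took between 0.638% and 0.838% in the knockout libraries and between 1.04% and 1.14% in the controls. In the order of mean levels over all libraries, *Clec4e*, *Clec4d*, *Clec4n*, *Clec4a1*, *Clec7a*, *Clec4a3*, *Clec12a*, *Clec5a* and *Clec4a2*, several neighbours did not differ beyond their spread. The ranges of *Clec4a1* and *Clec7a*, and of *Clec5a* and *Clec4a2*, overlapped in both groups. Those of *Clec4n* and *Clec4a1* overlapped in the knockout libraries but not in the controls. *Clec12a* was below *Clec4a3* in every control library and above it in every knockout library.

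**Figure D2:**
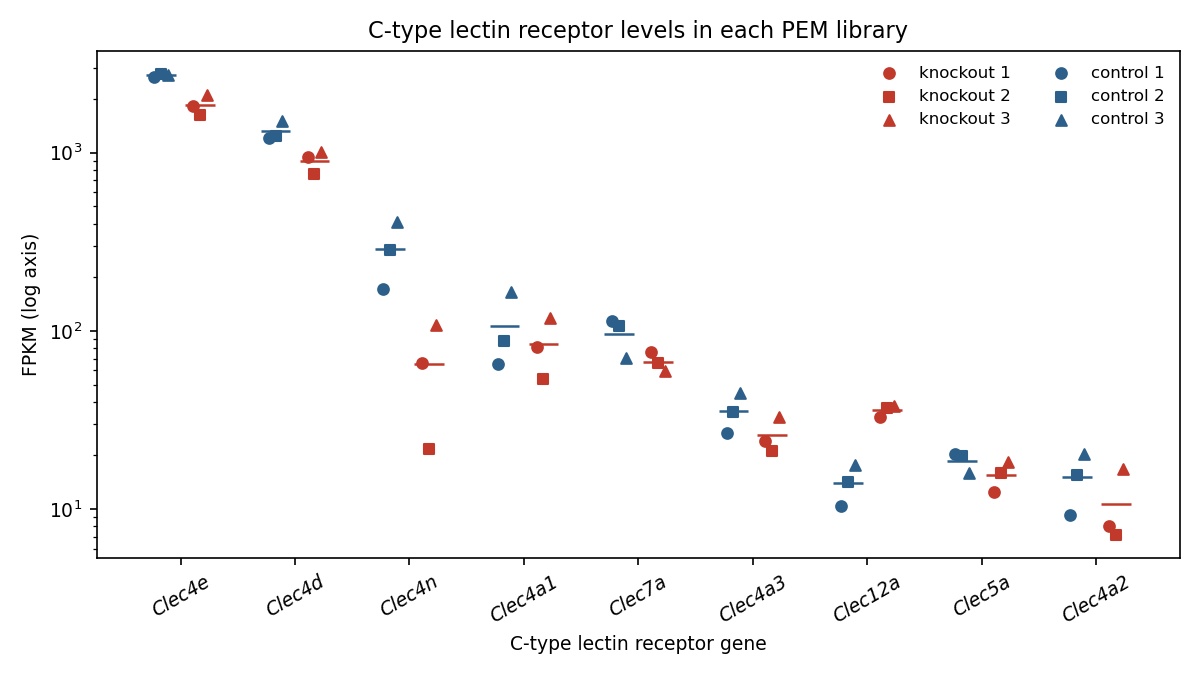
FPKM of the 9 receptors in each library on a log axis, ordered by their mean level, with controls in blue, knockouts in red, a symbol for each replicate number and a line at each group mean (n = 3). *Clec4e* and *Clec4d* lie highest in both groups, *Clec4n* has the largest fold difference between its group means with 21.6 to 107.7 FPKM in the knockout libraries against 171.9 to 410.5 FPKM in the controls, and *Clec12a* is the receptor whose knockout libraries all lie above the controls.

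*Clec4e* (Entrez 56619) encodes Mincle, a receptor for mycobacterial glycolipids and for a nuclear protein released by dying cells. It was at 1825, 1635 and 2104 FPKM (knockout libraries 1 to 3) and 2667, 2774 and 2734 FPKM (control libraries 1 to 3). The groups did not overlap, and the control libraries lay close together while the knockout libraries were more spread. The means were 1855 ± 236 and 2725 ± 54.3 FPKM (SD, n = 3 each), so the knockout mean was 1.47-fold lower. The log2 fold change was -0.56 (standard error 0.14, 95% confidence interval -0.88 to -0.24), which missed the threshold with an adjusted p of 0.0522 from limma. With a pseudocount of 0.1 it passed (adjusted p = 0.0495 from limma). *Clec4e* alone took between 0.493% and 0.634% of the reads in the knockout libraries and between 0.804% and 0.837% in the controls.

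*Clec4d* (Entrez 17474) encodes MCL, also called Dectin-3, which pairs with Mincle at the cell surface and lies beside it in the genome. Its levels were 941, 757 and 1004 FPKM (knockout libraries 1 to 3) and 1203, 1247 and 1507 FPKM (control libraries 1 to 3). The groups did not overlap, and the gap between the highest knockout and the lowest control library was narrower than for *Clec4e* in relation to the levels. On the log2 scale the fold change was -0.55 (standard error 0.16, 95% confidence interval -0.93 to -0.17, adjusted p = 0.0808 from limma), short of the threshold. The ratio of *Clec4d* to *Clec4e* in FPKM was 0.485 ± 0.027 in the knockout libraries and 0.484 ± 0.058 in the controls (SD, n = 3 each, two-sided exact permutation p = 1). In 3 against 3 libraries such a test cannot give a p below 0.1. The log2 difference of this ratio was 0.0094, and the ratio ranged from 0.449 to 0.551 over the 6 libraries.

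*Clec4n* (Entrez 56620) encodes Dectin-2, a receptor for fungal mannans, and lies on the other side of *Clec4d*. It was at 66.2, 21.6 and 107.7 FPKM (knockout libraries 1 to 3) and 171.9, 282.9 and 410.5 FPKM (control libraries 1 to 3). The groups did not overlap although both were widely spread, with knockout library 2 the lowest of all. The mean was 65.2 ± 43.1 FPKM in the knockout libraries and 288 ± 119 FPKM in the controls (SD, n = 3 each), 4.42-fold lower. The log2 fold change was -2.31 (standard error 0.58, 95% confidence interval -3.66 to -0.96), with an adjusted p of 0.0555 from limma. Blocking on the replicate number, the standard error was 0.42 and the adjusted p was 0.0313 from limma. Knockout libraries 1 to 3 held 38.5%, 7.65% and 26.2% of the level of the control library of the same number. *Clec4n* also passed without knockout library 3 (log2 fold change -2.80, limma, adjusted p = 0.0394) and, at -2.64, without control library 1 (limma, adjusted p = 0.0480). Without knockout library 2 the log2 fold change was -1.67, with an adjusted p of 0.122 from limma.

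Of 8 neutrophil markers, 7 were found and 6 tested, and their summed level was 176.7, 108.8 and 230.3 FPKM (knockout libraries 1 to 3) and 232.5, 309.3 and 478.6 FPKM (control libraries 1 to 3). *Mmp8*, a collagenase gene, varied widely, at 71.9, 29.2 and 127.5 FPKM (knockout libraries 1 to 3) and 19.5, 121.8 and 293.9 FPKM (control libraries 1 to 3), so that its groups overlapped. Without *Mmp8*, left out after its values were seen, the markers summed to 79.7 to 104.7 FPKM in the knockout libraries and 184.8 to 213 FPKM in the controls, most of it *S100a8* in the controls. *Csf3r*, the receptor of the neutrophil growth factor, had overlapping groups, and its log2 fold change was positive at 0.46 (limma, adjusted p = 0.304). *S100a8* and *Camp* were lower past the threshold (adjusted p = 0.0113 and 0.0454 from limma). *Camp* missed it with the block (0.0529) and with the rescaling (0.0569), whereas *S100a8* passed in both (0.0160 and 0.0161), and *Retnlg*, at 0.0503, passed with the block (0.0437). In voom 1 of the 6 passed. *S100a8* was at 39.9 to 70.5 FPKM in the knockout libraries and at 155.5 to 170.7 FPKM in the controls. At the low end of the list, *S100a9* was at most 5.12 FPKM and listed at 0 in 1 library, and *Ngp* was listed at 0 in 4 libraries, including all 3 controls. *Retnlg* and *Camp* were low as well, at most 3.08 and 1.56 FPKM. The part of neutrophil RNA in the levels of *Clec4n*, *Clec4d* and *Clec4e* was not tested. Markers of other cells differed between the groups too. The B cell markers summed to 3.24 to 6.17 FPKM in the knockout libraries and 30.8 to 124.2 FPKM in the controls (6 of 6 tested lower past the threshold, 5 in voom), and the mast cell markers to 1.89 to 2.25 and 37.5 to 49.0 FPKM (5 of 5 lower). The markers of large peritoneal macrophages summed to 134.2 to 348.3 and 479.9 to 1568 FPKM (4 of 7 lower), and those of small peritoneal macrophages and monocytes to 81.8 to 99.2 and 183.1 to 3025 FPKM (2 of 5 lower, and 1 of 5 in voom). Most of the large macrophage sum was *Serpinb2* in all 6 libraries. In the controls, most of the small macrophage and monocyte sum was *Chil3*, at 144 to 2991 FPKM. *Chil3* was at 45.4 to 78.3 FPKM in the knockout libraries. The direction was negative for 4 of the 5 tested markers of that list and positive for *Ly6c2* (0.21 on the log2 scale), whose groups overlapped. With the rescaling, *Ms4a1* and *Pax5* of the B cell list (adjusted p = 0.0550 each from limma), *Serpinb2* of the large macrophage list (0.0660) and *Plac8* of the monocyte list (0.0559) missed the threshold. With the block *Serpinb2* (0.0661) and the mast cell marker *Kit* (0.0538) missed it, whereas *Timd4* and *Chil3* passed as lower (0.0436 and 0.0293). At low levels, the sums of the dendritic cell markers (2.96 to 7.0 FPKM in the knockout libraries, 8.80 to 12.0 FPKM in the controls) and of the eosinophil markers (0.231 to 0.524 and 0.713 to 1.25 FPKM) did not overlap between the groups, while those of the T cell markers did (0.849 to 1.53 and 0.996 to 3.25 FPKM). Most of the dendritic cell sum was *Ccr7*, the 1 tested marker of that list. *Flt3*, *Zbtb46*, *Xcr1*, *Cd209a* and *Batf3* had overlapping groups, and *Dpp4* did not. Of the listed eosinophil markers, the groups were apart for *Ccr3* and overlapped for *Siglecf* and *Ear6*. Markers of mesothelial cells and fibroblasts summed to 12.1 to 34.4 FPKM in the knockout libraries and 2.13 to 13.1 FPKM in the controls (4 of 4 tested with a positive fold change, 0 past the threshold in limma or voom, 2 with an unadjusted p under 0.05 in limma, and 2 past the threshold with the block, *Col1a1* and *Col1a2*). The part of these cells in the receptor levels was not tested.

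*Clec7a* (Entrez 56644) encodes Dectin-1, the receptor for fungal beta-glucans. It was at 75.7, 65.9 and 59.5 FPKM (knockout libraries 1 to 3) and 113.5, 105.9 and 70.0 FPKM (control libraries 1 to 3). Control libraries 1 and 2 lay above all other libraries, while control library 3 fell within the knockout range. Dectin-1 had a log2 fold change of -0.50 (standard error 0.21, 95% confidence interval -0.98 to -0.01, adjusted p = 0.173 from limma). Without control library 3 it was -0.71, which passed the threshold (adjusted p = 0.0232 from limma). *Clec5a* (Entrez 23845), whose protein MDL-1 is an activating receptor of myeloid cells, was at 12.5, 16.0 and 18.5 FPKM (knockout libraries 1 to 3) and 20.3, 19.8 and 16.0 FPKM (control libraries 1 to 3). These groups overlapped, with control library 3 again among the knockout values. For *Clec5a* the log2 fold change was -0.25 (standard error 0.17, 95% confidence interval -0.66 to 0.16, adjusted p = 0.381 from limma).

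*Clec12a* (Entrez 232413) encodes MICL, an inhibitory receptor that binds uric acid crystals. It was at 33.0, 36.9 and 37.9 FPKM (knockout libraries 1 to 3) and 10.4, 14.2 and 17.6 FPKM (control libraries 1 to 3). The groups were far apart, and the knockout libraries lay close together. The means were 35.9 ± 2.58 and 14.1 ± 3.59 FPKM (SD, n = 3 each), a 2.55-fold higher level. The log2 fold change was 1.32 (standard error 0.19, 95% confidence interval 0.87 to 1.77, adjusted p = 0.0144 from limma). Knockout libraries 1 to 3 held 316%, 260% and 215% of the level of the control library of the same number. The size of this difference moved little when a library was left out, between 1.13 and 1.49 on the log2 scale, but the adjusted p from limma rose to 0.0652 without knockout library 1, to 0.0743 without knockout library 2 and to 0.0883 without control library 2.

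*Clec4a2* (Entrez 26888), which encodes the inhibitory receptor DCIR, did not pass the threshold. It was at 8.06, 7.20 and 16.8 FPKM (knockout libraries 1 to 3) and 9.29, 15.5 and 20.5 FPKM (control libraries 1 to 3), and the groups overlapped. The log2 fold change was -0.49 (standard error 0.36, 95% confidence interval -1.34 to 0.37, adjusted p = 0.415 from limma). *Clec4a3* (Entrez 73149) was at 24.1, 21.1 and 32.8 FPKM (knockout libraries 1 to 3) and 26.8, 34.9 and 44.7 FPKM (control libraries 1 to 3). Its groups overlapped through knockout library 3 and control library 1, and the log2 fold change was -0.43 (standard error 0.23, 95% confidence interval -0.97 to 0.11, adjusted p = 0.272 from limma). *Clec4a1* (Entrez 269799) was at 81.0, 53.9 and 118.4 FPKM (knockout libraries 1 to 3) and 65.5, 88.1 and 165.9 FPKM (control libraries 1 to 3), with wide overlap. Its log2 fold change of -0.29 (standard error 0.39, 95% confidence interval -1.21 to 0.63, adjusted p = 0.656 from limma) turned to 0.078 without control library 3. In each of the 3 genes, library 3 was the highest of its group.

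**Figure D3:**
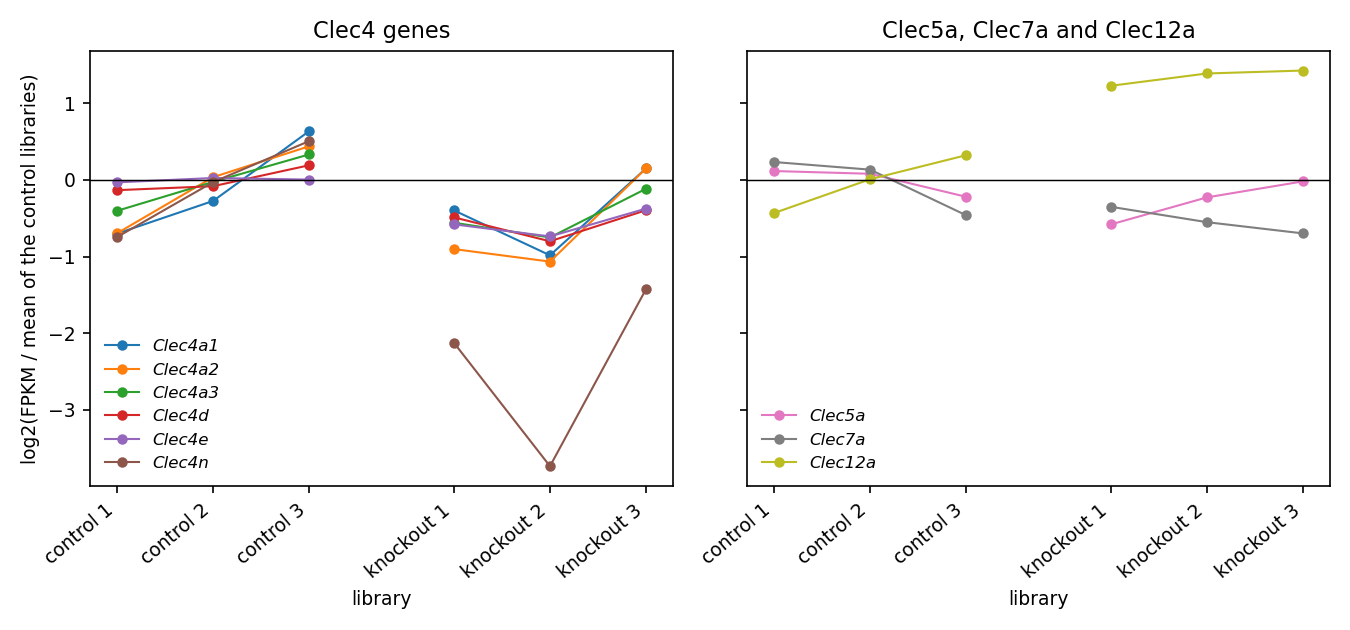
Log2 of the FPKM of each receptor in each library relative to the mean of the control libraries, with the genes named Clec4 on the left and *Clec5a*, *Clec7a* and *Clec12a* on the right. Lines join the libraries of a group only to make a gene easier to follow; the Clec4 genes share their lowest knockout value in knockout library 2, *Clec4n* lies lowest, and *Clec7a* is lowest in library 3 of each group while *Clec12a* is highest there.

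The receptors varied together across libraries to different degrees. Pearson's r of log2(FPKM + 1) over the 6 libraries was 0.98 between *Clec4d* and *Clec4n*, 0.95 between *Clec4e* and *Clec4n* and 0.94 between *Clec4d* and *Clec4e*. It was 0.97 between *Clec4a2* and *Clec4a3*. *Clec7a* and *Clec12a* ran in opposite directions, with r of -0.88. These values include the difference between the groups and come from the same 6 libraries, so they are descriptions. After each group's mean was taken away, r was 0.95 between *Clec4d* and *Clec4n*, 0.88 between *Clec4e* and *Clec4n* and 0.74 between *Clec4d* and *Clec4e*. It was then 0.98 between *Clec4a2* and *Clec4a3*, 0.97 between *Clec4a1* and *Clec4a3* and -0.89 between *Clec7a* and *Clec12a*. *Clec12a* and *Clec4e*, at -0.87 over the 6 libraries, had an r of 0.17 after the group means were removed.

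Among 5451 tested genes with a mean of at least 5 FPKM, the 3 most like each receptor over the 6 libraries had an r between 0.96 and 0.998. For *Clec4e* they were *Phlda1*, *Ptges2* and *Gclm*, for *Clec4d* *Nup88*, *Tuba4a* and *Gm20658*, and for *Clec4n* *Prdm1*, *Gstp1* and the formyl peptide receptor gene *Fpr2*. For *Clec12a* they were *S100a10*, *Pdrg1* and *Cebpd*, which encodes a C/EBP transcription factor. For *Clec7a* they were *Ier3*, *Pde4b* and the chemokine gene *Ccl24*, and for *Clec5a* *Tacc1*, *COX1* and *Prdx3*. For *Clec4a1* they were *Pex16*, *Mrps17* and *Atox1*, for *Clec4a2* *Ctps2*, *Ppp1ca* and *Cybc1*, and for *Clec4a3* *Imp3*, *Pgm2* and *Mrpl45*. *Phlda1* ranged from 13.5 to 44.6 FPKM over the knockout libraries and from 126.7 to 171.4 FPKM over the controls. It was chosen for its likeness to *Clec4e*, whose groups did not overlap, so this is no separate result. These r values are the highest of 5451 genes over 6 libraries and include the group difference, so they are descriptions.

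In the gene order of GRCm38.p6, *Clec4n*, *Clec4d* and *Clec4e* are immediate neighbours, as are *Clec4a1* and *Clec4a3*. Of the other immediate neighbours of the 9 receptors, *Olr1*, the gene of the scavenger receptor LOX-1 beside *Clec7a*, was the one tested. It was at 21.0, 23.9 and 20.2 FPKM (knockout libraries 1 to 3) and 46.8, 36.7 and 18.5 FPKM (control libraries 1 to 3), so that control library 3 was the lowest of all. Its log2 fold change was -0.53 (adjusted p = 0.303 from limma), and like *Clec7a* it passed with control library 3 left out (-0.91, limma, adjusted p = 0.0128). The transcripts of the receptors were nearly all distinct from those of other genes. In the GENCODE M21 transcripts, none of the 50-base windows of *Clec4a1*, *Clec4a3*, *Clec4d*, *Clec4e*, *Clec5a* and *Clec7a* occurred in another gene, while 0.686% of those of *Clec4n*, 0.457% of those of *Clec12a* and 6.83% of those of *Clec4a2* did.

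Of 24 other C-type lectin genes, 15 were listed and 9 tested, and 2 rose past the threshold, where 7.31% of all tested genes passed it. *Clec2d*, a ligand of an inhibitory receptor on natural killer cells, was at 93.0, 86.8 and 88.0 FPKM (knockout libraries 1 to 3) and 56.6, 52.1 and 46.4 FPKM (control libraries 1 to 3), a log2 difference of 0.78 (adjusted p = 0.0196 from limma). The mannose receptor gene *Mrc1* was at 69.4, 66.8 and 63.4 FPKM (knockout libraries 1 to 3) and 46.2, 45.1 and 41.9 FPKM (control libraries 1 to 3), a log2 difference of 0.57 (adjusted p = 0.0326 from limma). In neither gene did a control library reach the lowest knockout library. The most abundant of the list was *Cd302*, at 78.2 ± 17.7 FPKM in the knockout libraries and 114 ± 9.93 FPKM in the controls (SD, n = 3 each, adjusted p = 0.103 from limma), and *Cd69*, a surface marker of activation, was at 72.9 ± 16.8 and 27.1 ± 15.6 FPKM (adjusted p = 0.0894 from limma). The median log2 fold change of the 9 genes was -0.11, beside the same rounded value for all tested genes. With the replicate number as a block 4 passed, where 9.47% of all tested genes did. In this fit *Cd69* rose (adjusted p = 0.0437 from limma) and the collectin gene *Colec12* fell (adjusted p = 0.0493 from limma). Without control library 3 there were 6 past the threshold in limma, 3 higher and 3 lower, since *Cd69* was higher (log2 fold change 0.98, adjusted p = 0.0238) and *Colec12*, *Mgl2* and *Olr1* were lower (-1.39, -1.90 and -0.91, adjusted p = 0.0200, 0.00657 and 0.0128). Without knockout library 1, knockout library 2 or control library 2 the adjusted p from limma was at least 0.0899 for *Clec2d* and at least 0.106 for *Mrc1*, and *Mrc1* also missed the threshold without knockout library 3 (0.0606), a fit in which *Cd302* passed as lower (-0.73, adjusted p = 0.0480).

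Among the adaptors and kinases below these receptors, positive fold changes were more frequent than negative ones. Of 16 such genes, all tested, 13 had a positive and 3 a negative fold change, and 0 passed the threshold in limma, where 2 had an unadjusted p under 0.05, and 0 in voom. Of all tested genes, 63.5% had a negative fold change and 7.31% passed the threshold in limma. *Fcer1g*, the signalling chain of Mincle, MCL and Dectin-2, was the most abundant at 993 ± 23.0 FPKM in the knockout libraries and 904 ± 159 FPKM in the controls (log2 fold change 0.15, 95% confidence interval -0.22 to 0.52). *Tyrobp*, the chain of *Clec5a*, was at 668 ± 47.6 and 595 ± 39.6 FPKM (0.17, interval -0.13 to 0.46). *Malt1*, which acts with *Card9*, had a log2 fold change of 0.07 (interval -0.23 to 0.38). The 16 genes had a median log2 fold change of 0.15. With the rescaling, *Hcst*, an adaptor used by *Clec5a*, passed upward (0.74, adjusted p = 0.0333 from limma). Leaving out control library 3, *Hcst* and *Vav1*, a signalling protein downstream of *Syk*, passed upward (0.79 and 0.83, adjusted p = 0.0124 and 0.0312 from limma), and so did *Src* when control library 1 was left out (0.88, adjusted p = 0.0441).

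Of 7 genes of phosphatases and other inhibitory proteins, 3 had a positive and 4 a negative fold change. *Inpp5d* alone fell past the threshold, which 7.31% of all tested genes passed. *Inpp5d* encodes the lipid phosphatase SHIP1 and was at 1.64, 1.93 and 3.10 FPKM (knockout libraries 1 to 3) and 8.77, 6.05 and 5.75 FPKM (control libraries 1 to 3). The groups did not overlap, and the log2 fold change was -1.29 with a standard error of 0.22 (adjusted p = 0.0205 from limma). The median of the list was -0.02. *Ptpn6*, whose product SHP-1 binds inhibitory motifs such as that of *Clec12a*, was at 87.1 ± 7.07 and 75.2 ± 11.3 FPKM (SD, n = 3 each), with a log2 fold change of 0.22 (95% confidence interval -0.14 to 0.57). The ubiquitin ligase gene *Cbl* was at 27.9 ± 0.486 and 30.7 ± 7.26 FPKM, and *Ptpn11*, the gene of SHP-2, at 26.5 ± 1.23 and 25.1 ± 0.694 FPKM. For *Ubash3b*, whose product removes phosphate from *Syk*, the log2 fold change was 0.53 with an adjusted p of 0.142 from limma. *Ubash3b* passed upward with knockout library 3 left out (0.75, limma, adjusted p = 0.0479). *Inpp5d* missed the threshold without knockout library 1 (adjusted p = 0.0949 from limma), knockout library 2 (0.104) or control library 2 (0.0987).

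Cytokine and enzyme genes that are known targets of these receptors, and of other routes such as LPS signalling, were split. Of 18 such genes, 16 were tested, with 7 positive and 9 negative fold changes, a median of -0.27, and 2 that fell past the threshold. Of all tested genes, 7.31% passed it, 4.74% of them as lower and 2.57% as higher. *Cxcl2*, a neutrophil-attracting chemokine gene, was at 4361, 3345 and 4593 FPKM (knockout libraries 1 to 3) and 7240, 8588 and 8460 FPKM (control libraries 1 to 3), a log2 difference of -0.99 (adjusted p = 0.0197 from limma). *Cxcl1*, of the same family, was at 958, 1152 and 1544 FPKM (knockout libraries 1 to 3) and 2935, 3227 and 2231 FPKM (control libraries 1 to 3), a log2 difference of -1.21 (adjusted p = 0.0254 from limma). Both genes had all knockout libraries below all control libraries. *Tnf* was at 4924 ± 747 and 3775 ± 650 FPKM (log2 fold change 0.39, interval -0.04 to 0.81), and *Ccl3* at 5307 ± 921 and 4332 ± 702 FPKM (0.29, interval -0.15 to 0.73, SD, n = 3 each). With the replicate number as a block 5 passed, where 9.47% of all tested genes did, since *Nos2*, *Il12b* and *Il27* rose (log2 fold changes 1.96, 0.90 and 0.85, adjusted p = 0.0165, 0.0243 and 0.0330 from limma). Leaving out control library 3, 5 passed and all 5 were lower, where 14.2% of all tested genes passed. *Csf3*, *Il6* and *Ptgs2* then joined *Cxcl1* and *Cxcl2* (log2 fold changes -1.47, -1.79 and -1.41, adjusted p = 0.0135, 0.00910 and 0.00759 from limma). Leaving out control library 1, *Nos2* passed upward beside the lower *Cxcl1* and *Cxcl2* (2.40, adjusted p = 0.0373 from limma). None of the list passed without knockout library 1, knockout library 2 or control library 2, where between 4 and 5 had an unadjusted p under 0.05 in limma and the adjusted p was between 0.0779 and 0.101 for *Cxcl2* and between 0.103 and 0.118 for *Cxcl1*. Without a filter on low values *Cxcl1* and *Cxcl2* missed the threshold (adjusted p = 0.0650 and 0.106 from limma) and *Ifnb1* passed upward (0.61, adjusted p = 0.0464).

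**Figure D4:**
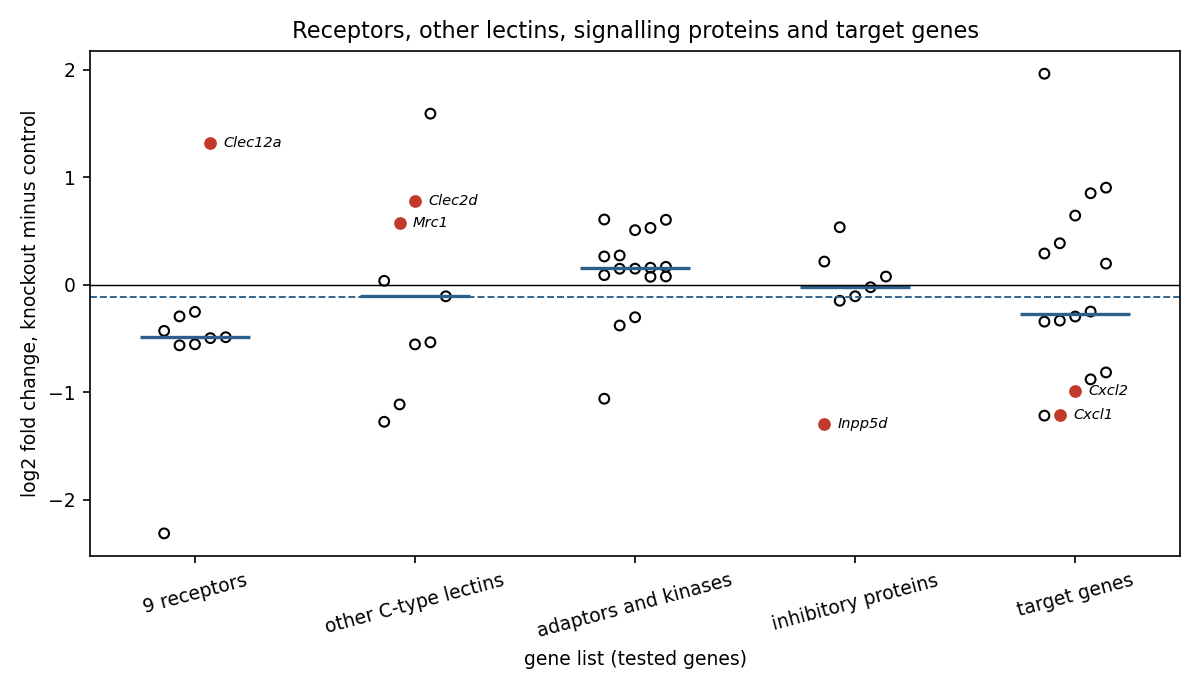
Log2 fold changes, knockout minus control, of the tested genes of each list (3 libraries per group); filled red points passed an adjusted p of 0.05 in limma and are named, open points did not, and blue bars are list medians. The dashed line is the median of all tested genes at -0.11; the receptors lie lower (median -0.49) than their adaptors and kinases (median 0.15), with *Clec12a* as the one called receptor.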

How the data were processed

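RNA of PEMs was sequenced in 6 libraries, 3 per group, which were grouped by their titles. The authors deposited 1 table with FPKM per gene and library, and as a signal the mean of size-factor-normalised reads per group. The aligner, the counting program and the annotation are not given in the sources used here. The submitters' processing notes name build mm9, so no coordinates of genes are given, and promoter windows carry the build of their own RefSeq table, GRCm38.p6. Columns of the authors' own comparison (fold changes, p-values and q-values) were not used, and no per-sample column was left unused (0). Reads per gene and library were worked back from the FPKM with the help of the deposited group means, and 100% of them came within 0.1 of a whole number in each library.

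The receptors and all gene lists were chosen with earlier results of these data known. Log2(FPKM + 1) of the 9030 genes with a mean of at least 1 FPKM in one group was fitted with limma 3.58.1 in R 4.3.3 (empirical Bayes with a trend, two-sided, Benjamini-Hochberg, threshold 0.05). Because of the pseudocount of 1, changes of low genes are understated. The fit was tested on simulated data. Named genes were the 9 receptors, *Timd4* and *Lyz2*, from each list every called gene and the 4 most abundant ones, the 3 genes most like each receptor, and tested neighbours, except that 2 genes of the adaptor and kinase list are not reported here. Genes called in an alternative, and markers, were named after their values were seen.

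Whether the replicate numbers pair the libraries was checked by correlating, across genes, how libraries deviate from the mean of their group. Knockout and control libraries of one number correlated at 0.109, 0.1095 and 0.304, and libraries of different numbers at -0.332 to 0.291. Since 0.109 and 0.1095 lie below the 0.291 of knockout library 2 with control library 1, this check does not show that the numbers pair the libraries. The main fit used no block, and a fit with the number as a block was an alternative. The others were no filter, at least 10 reads in every library, a pseudocount of 0.1, the median of ratios, voom on the recovered reads and each library left out in turn.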

Additional observations from a re-analysis of the deposited data

How the results depend on the processing

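The 9 receptors were recomputed under 12 alternatives, which gave 108 values, of which 99 kept their direction and their side of the threshold. With a library left out, the log2 fold change of *Clec4a1* ranged from -0.585 to 0.0785, the last without control library 3 (adjusted p = 0.887 from limma). *Clec12a* missed the threshold in 3 fits, *Clec4n* passed in 3, and *Clec4e* and *Clec7a* in 1 each. Receptors past the threshold numbered 2 with a pseudocount of 0.1, 2 with the replicate number as a block, and between 0 and 2 with a library left out. Apart from *Clec4n*, the block changed no call of a receptor. Calls of adaptors, kinases and phosphatases numbered 2 with the block, 2 with the rescaling, and 0 to 3 with a library left out. Other C-type lectins numbered 4 with the block and 0 to 6 with a library left out. Target genes numbered 1 without a filter (*Ifnb1*, below the filter on mean FPKM), 5 with the block and 0 to 5 with a library left out. Over the whole table the calls ranged from 8, without control library 2, to 1278, without control library 3, and were 446 without a filter, 709 with 10 reads in every library, 692 with a pseudocount of 0.1, 855 with the block, 669 with the rescaling and 650 with voom. The cause was not tested. With 3 libraries per group, the 95% intervals of *Clec4a1*, *Clec4a2*, *Clec4a3* and *Clec5a* include changes in both directions.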
